A study of Pyrus syriaca and Pyrus pyrifolia and Pyrus communis with 12 samples.

Results

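The miRs mdm-miR2118a, mdm-miR482a-3p, ppe-miR482c-3p and ppe-miR482d-3p are the rows of the deposited counts that carry the name miR2118 or that are 3p miRs of the apple MIR482a and the peach MIR482c and MIR482d precursors. They were taken by name, and they are 4 of the 355 unique mature miRs in the table, of which 120 had a read in any library. A prefix gives the species in which a miR was described, mdm for apple (Malus domestica) and ppe for peach (Prunus persica), so that reads from pear were counted on the miRs of its relatives. Stigma exudates, the fluid on the receptive surface of the pistil, and stigma tissue were sampled from non-pollinated flowers at 12 hours after anthesis (HAA). The genotypes were 3 populations of the wild pear Pyrus syriaca (Golan, Manara and SASA), the P. communis cultivar Spadona and the P. pyrifolia cultivars Hosui and Shinsui. Each of the 6 genotypes gave 1 exudate library and 1 stigma library, and an exudate sample pooled 500 to 600 flowers. The wild trees of Golan, Manara and SASA stood at altitudes of 900, 450 and 830 m, the 3 cultivars at 430 m. Altitude thus differed most from the cultivars in Golan and SASA, and its part in the species comparisons was not tested. The cultivars grew in commercial orchards at Kibbutz Yiftah and the wild trees at other sites. Species, site and cultivation therefore cannot be told apart in the comparisons of wild and cultivated pears. A tissue of a genotype was sequenced once, and the p-values below measure the spread between genotypes, except those of Fisher's exact test within a genotype.

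The miR482 and miR2118 families form a superfamily of plant miRs known for targeting transcripts of NBS-LRR genes, which encode intracellular immune receptors with a nucleotide-binding site and leucine-rich repeats. Their target site lies in the stretch that encodes the P-loop of the nucleotide-binding site, a motif that many receptors share, so that 1 miR can act on many of them. Members of 22 bases can also start the production of secondary small RNAs from a cleaved transcript, and in grasses miR2118 is known for this role in anthers.

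The 4 sequences are shown because they fix how the reads of the family could be divided. The capitals mark the seed, bases 2 to 8 from the 5′ end, which is only a part of the bases that pair with a target.
mdm-miR2118a: cUACCGAUgccacuaaguccca
mdm-miR482a-3p: uUCCCAAGcccgcccauuccua
ppe-miR482c-3p: uUCCCAAGcccgcccauuccaa
ppe-miR482d-3p: cCUCCCAUgccacgcauuucua

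Each of the 4 miRs is 22 bases long. The seed UCCCAAG is shared by mdm-miR482a-3p and ppe-miR482c-3p and by no other miR of the 355, while the seeds of mdm-miR2118a and ppe-miR482d-3p each belong to that miR alone. Counted from the 5′ end, mdm-miR482a-3p and ppe-miR482c-3p differ by U21A, which leaves 21 of 22 bases alike (95.5%). In register, mdm-miR2118a matches ppe-miR482d-3p at 14 of 22 bases, with AUGCCAC at positions 7 to 13 as their longest common stretch, and mdm-miR482a-3p at 12 of 22. No other miR of the table lay closer than 7 mismatches to mdm-miR2118a or than 6 mismatches to ppe-miR482d-3p. Reads were assigned by the authors with up to 7% mismatches, which is 1 base of 22. Of the 4 miRs, only the pair that differs by U21A lies within that distance of another miR. The library kit adds a poly-A tail that was trimmed before counting, and mdm-miR482a-3p ends in 1 A while ppe-miR482c-3p ends in 2. A read of ppe-miR482c-3p without them holds just the 20 bases that both miRs share, so the counts of this pair are uncertain as separate miRs.

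The table places mdm-MIR2118a on the apple contig MDC017130.228 at 6718 to 6868 of the plus strand, and lists mdm-miR2118b and mdm-miR2118c as miRs of the same mature sequence. The precursor mdm-MIR482a lies on the apple contig MDC002407.840 at 1569 to 1723 of the plus strand. In peach, ppe-MIR482c lies at chrG3:16316472-16316592 on the plus strand and ppe-MIR482d at chrG8:11352888-11353031 on the minus strand. These are positions of precursors in apple and peach, not in pear, and their genome builds are not given in the sources used here.

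Depth differed strongly between the tissues. The deposited counts summed to 27 to 176 miR reads per exudate library (median 49.5) and to 199 to 1777 per stigma library (median 653). A count of 0, with 3 reads of the total as its upper limit, allows a share of 1.70% to 11.1% of an exudate library and of 0.169% to 1.51% of a stigma library. Shares are percent of the miR reads of a library, their intervals are 95% Wilson intervals, and both intervals and limits cover counting error only. In sampled fluid or tissue, fewer cells that make a miR and less of it per cell cannot be told apart.

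Of the 4 miRs, mdm-miR2118a had the most reads in 6 of 6 exudates, and mdm-miR482a-3p in 4 of 6 stigmas, while in the stigmas of Hosui and Shinsui mdm-miR2118a had slightly more. By mean share, mdm-miR2118a ranked 2nd of the 61 miRs with exudate reads, mdm-miR482a-3p 7th and ppe-miR482c-3p 19th. Of the 114 miRs with stigma reads, mdm-miR482a-3p ranked 4th, mdm-miR2118a 6th, ppe-miR482c-3p 12th and ppe-miR482d-3p 107th. The 4 miRs together took 38 of 422 exudate reads (9.0%) and 530 of 5276 stigma reads (10.05%). Their summed share averaged 10.8% ± 4.74 in exudates, from 5.11% (Manara) to 18.0% (Golan), and 9.16% ± 5.10 in stigmas, from 4.49% (Spadona) to 18.6% (SASA) (SD, n = 6 genotypes each), so that the ranges overlapped widely.

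mdm-miR2118a, the miR2118 member, had 5, 5, 3, 4, 3 and 7 reads in the exudates of Golan, Manara, SASA, Spadona, Hosui and Shinsui, against 57, 41, 54, 5, 9 and 8 reads in the stigmas of the same genotypes. As shares these were 10%, 2.84%, 11.1%, 8.16%, 7.32% and 8.86% of the exudate libraries, against 3.44%, 2.31%, 6.80%, 0.977%, 2.67% and 4.02% of the stigma libraries. Manara, the deepest exudate library, stood below the other 5 exudates, which lay close to one another, and the exudate share was the higher one in 6 of 6 genotypes. In Spadona the 2 intervals did not overlap, with 3.22% to 19.2% in the exudate and 0.418% to 2.27% in the stigma, and in the other 5 genotypes they did.

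mdm-miR482a-3p, a 3p miR of the miR482 family, had 2, 4, 0, 2, 0 and 0 exudate reads in the same order of genotypes, against 70, 114, 75, 16, 7 and 7 stigma reads. Its shares were 4.00%, 2.27%, 0%, 4.08%, 0% and 0% in exudates, against 4.22%, 6.42%, 9.45%, 3.13%, 2.08% and 3.52% in stigmas. The exudate share was the lower one in 5 of 6 genotypes, with Spadona as the exception. The exudates without a read allow up to 11.1% (SASA), 7.32% (Hosui) and 3.80% (Shinsui), and since the stigma shares of these genotypes lie below those limits, an absence was not detectable at this depth.

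ppe-miR482c-3p, its near-copy, had 2 exudate reads in Golan, 1 in Spadona and 0 in Manara, SASA, Hosui and Shinsui, against 18, 2, 25, 19, 2 and 0 stigma reads in those genotypes. Its stigma share was at most 2.39% (SASA), below that of mdm-miR482a-3p in 6 of 6 stigmas. ppe-miR482d-3p had 1 read in all, in the stigma of Manara, and 0 of 422 exudate reads. With presence set at 2 reads or more in a library, mdm-miR2118a was present in 6 of 6 exudates, mdm-miR482a-3p in 3 and ppe-miR482c-3p in 1.

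**Figure D1:**
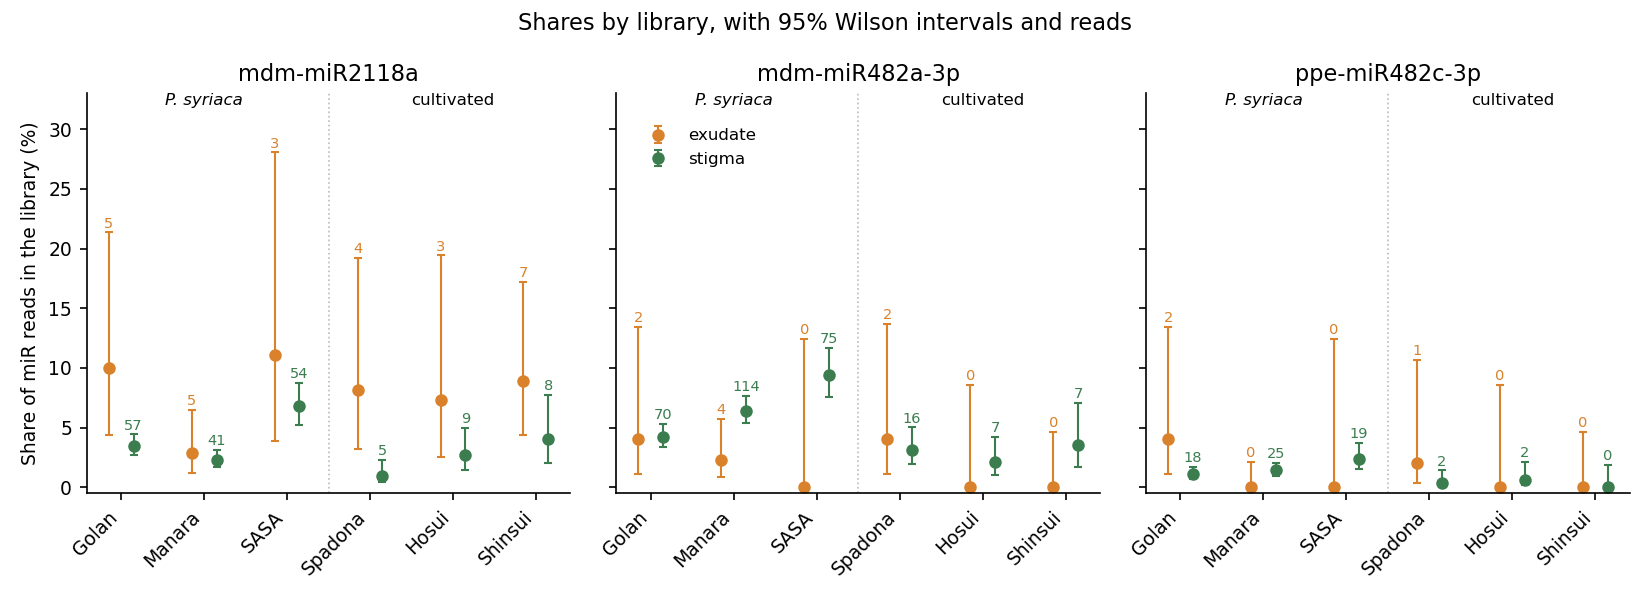
Share of miR reads (percent, vertical axis) of the 3 miRs of the family with more than 1 read, in the exudate (orange, left) and the stigma (green, right) of each genotype, with 95% Wilson intervals as bars and the number of reads above them. The exudate point of mdm-miR2118a lies above its stigma point in 6 of 6 genotypes, and that of mdm-miR482a-3p lies below its stigma point in 5 of 6.

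Whether the exudate carries the family in the proportions of the stigma was addressed by the comparison of both tissues of each genotype. The share of mdm-miR2118a averaged 8.05% ± 2.88 in exudates and 3.37% ± 1.98 in stigmas (SD, n = 6 each), a difference of 4.68 percentage points. A two-sided exact test by sign flips of the 6 paired differences gave p = 0.031 for mdm-miR2118a, the smallest p that 6 pairs allow, and 0.273 after Benjamini-Hochberg adjustment over the 35 miRs with at least 10 reads. mdm-miR482a-3p averaged 1.73% ± 2.00 in exudates and 4.80% ± 2.70 in stigmas, a difference of -3.08 percentage points (exact p = 0.0938, adjusted p = 0.365). For ppe-miR482c-3p the means were 1.01% ± 1.68 and 0.978% ± 0.854, with the exudate higher in 2 genotypes and lower in 3 (exact p = 1.0). None of the 35 miRs passed an adjusted p of 0.05 in this test (0.0%).

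The ratio of mdm-miR2118a to mdm-miR482a-3p does not depend on the total of a library or on its scaling. mdm-miR2118a made up 71.4%, 55.6%, 100%, 66.7%, 100% and 100% of the reads of the pair in the exudates of Golan, Manara, SASA, Spadona, Hosui and Shinsui, against 44.9%, 26.5%, 41.9%, 23.8%, 56.3% and 53.3% in their stigmas. The exudate value was higher in 6 of 6 genotypes, although the groups overlapped, since Manara's exudate lay at 55.6% and the stigma of Hosui at 56.3%. The mean was 82.3% ± 20.1 in exudates and 41.1% ± 13.5 in stigmas (SD, n = 6 each). The difference was 41.2 ± 11.7 percentage points, with p = 0.031 by exact sign flips, two-sided, the smallest p that 6 pairs allow and 1 comparison. An exudate value here rests on 3 to 9 reads, and within single genotypes Fisher's exact test gave p from 0.0513 (Shinsui) to 0.263 (Hosui), or 0.204 to 0.263 after adjustment over the 6 genotypes. Fisher's test here compares the reads of 1 exudate library with those of 1 stigma library, and so covers counting error only. The pair was picked with earlier results of these data known, so its p-value is not independent evidence.

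**Figure D2:**
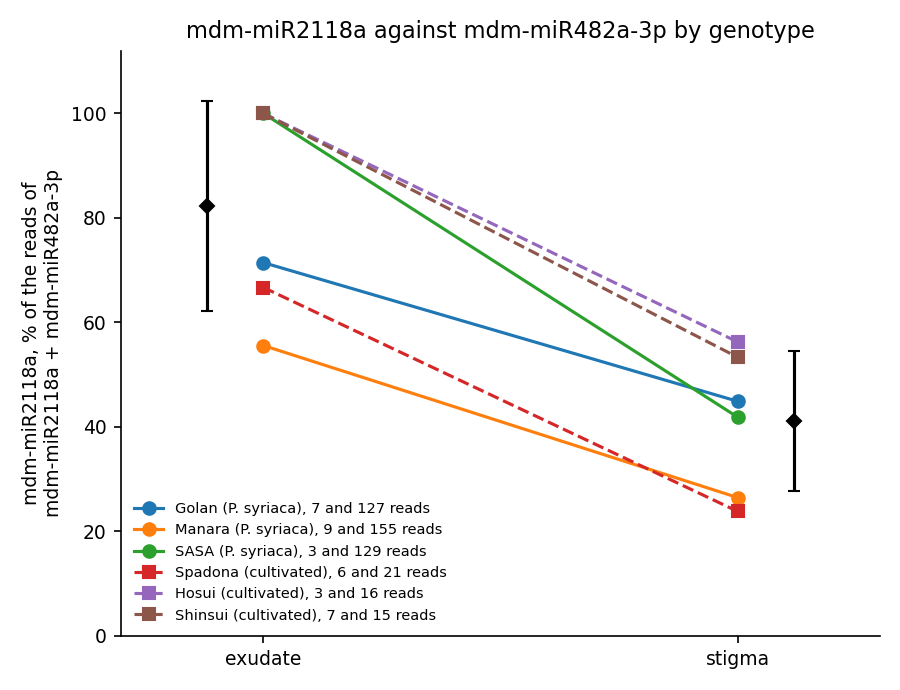
Reads of mdm-miR2118a as percent of the reads of mdm-miR2118a plus mdm-miR482a-3p (vertical axis) in the exudate and the stigma of each genotype, joined by a line, with the reads behind both values in the key. Black diamonds give the mean and SD of 6 genotypes, 82.3% ± 20.1 in exudates and 41.1% ± 13.5 in stigmas, and all 6 lines run downward to the stigma.

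Set against the stigma of the same genotype, the exudates held more reads of mdm-miR2118a and fewer of mdm-miR482a-3p than the stigma shares give at exudate depth. The 6 exudates held 27 reads of mdm-miR2118a, and the stigma shares give 12.4. They held 8 reads of mdm-miR482a-3p, and the stigma shares give 21.1, of which 11.3 fall to Manara, where 4 were read. For ppe-miR482c-3p the numbers were 3 and 4.10, and for ppe-miR482d-3p 0 and 0.099, so that at this depth a difference in these 2 miRs was not detectable.

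**Figure D3:**
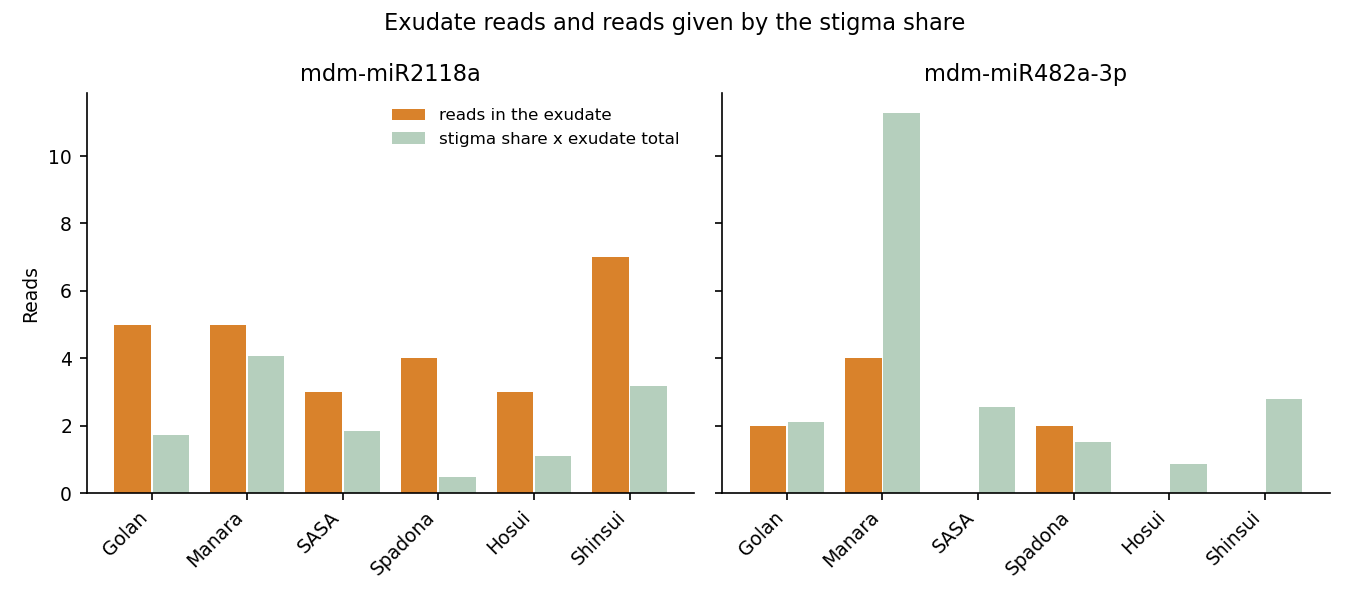
Reads of mdm-miR2118a and mdm-miR482a-3p in each exudate (orange, left) beside the number that the stigma share of the same genotype gives at the exudate total (pale green, right). For mdm-miR2118a the orange bar is the higher one in 6 of 6 genotypes, and for mdm-miR482a-3p the largest gap is in Manara, with 4 reads beside 11.3.

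In count models, mdm-miR482a-3p was called lower in exudates with TMM or TMMwsp scaling and by DESeq2, but not with library totals. mdm-miR2118a passed with none of these. By edgeR's quasi-likelihood test with TMM scaling, mdm-miR482a-3p was lower in exudates, with a log2 fold change of -2.38 (SE 0.53, adjusted p = 0.000111). This fit did not pair the libraries of a genotype, nor did those with other scalings or filters, on library totals or with a genotype left out. With the genotype as a block, the value was -2.38 (SE 0.68, edgeR adjusted p = 0.00375). In the unpaired fit, mdm-miR482a-3p was 1 of 7 miRs called lower in exudates among the 35 tested (20%), and none was called higher. mdm-miR2118a had a log2 fold change of -0.09 (SE 0.44, adjusted p = 0.890) and ppe-miR482c-3p of -1.53 (SE 0.93, adjusted p = 0.184), neither of which passed. With library totals in place of TMM, the call of mdm-miR482a-3p was lost in edgeR (-1.39, SE 0.65, adjusted p = 0.166), mdm-miR2118a turned to 1.16 (SE 0.56, adjusted p = 0.166), and 1 of 35 miRs was called (2.86%), mdm-miR169a. The median log2 fold change of the 35 miRs was -1.43 with TMM and -0.29 with library totals. Relative to that median, mdm-miR2118a lay at 1.34 and 1.44, mdm-miR482a-3p at -0.95 and -1.11, and ppe-miR482c-3p at -0.09 and -0.16. A change of scaling shifts all miRs nearly alike, so that these distances are kept almost by construction. With each genotype left out in turn, mdm-miR482a-3p stayed called under TMM in 6 of 6 fits (log2 fold change -2.69 to -1.84, highest adjusted p = 0.0244), and ppe-miR482c-3p ran from -2.42 to -0.88 without passing.

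Among stigmas, the miR482 3p miRs took larger shares in P. syriaca than in cultivated pears, while mdm-miR2118a overlapped. mdm-miR482a-3p averaged 6.70% ± 2.62 in P. syriaca (4.22% to 9.45%) and 2.91% ± 0.745 in cultivated pears (2.08% to 3.52%) (SD, n = 3 each). ppe-miR482c-3p averaged 1.63% ± 0.681 in P. syriaca (1.09% to 2.39%) and 0.328% ± 0.302 in cultivated pears (0% to 0.593%), where the 0 of Shinsui allows up to 1.51%. Neither pair of ranges overlapped, and the exact permutation p of each was 0.1, the smallest that 3 against 3 allow. Ranges higher in P. syriaca without overlap were found for 7 of the 30 miRs with at least 10 stigma reads (23.3%). mdm-miR2118a averaged 4.18% ± 2.34 in P. syriaca and 2.56% ± 1.53 in cultivated pears, with overlapping ranges (exact permutation p = 0.5).

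These stigma shares moved with mdm-miR482d, a miR of the same family number but another seed, which took 6.58% to 12.4% of the miR reads in P. syriaca stigmas and 28.5% to 64.8% in cultivated ones. Without the reads of mdm-miR482d in the total, all 3 miRs overlapped between the groups, and 1 of 29 miRs was higher in P. syriaca without overlap (3.45%). mdm-miR482a-3p then averaged 7.40% ± 2.91 in P. syriaca and 6.47% ± 3.08 in cultivated pears, and ppe-miR482c-3p 1.80% ± 0.747 and 0.662% ± 0.726. The mean of mdm-miR2118a was then the lower one in P. syriaca, with 4.59% ± 2.53 against 6.42% ± 5.03 in cultivated pears.

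**Figure D4:**
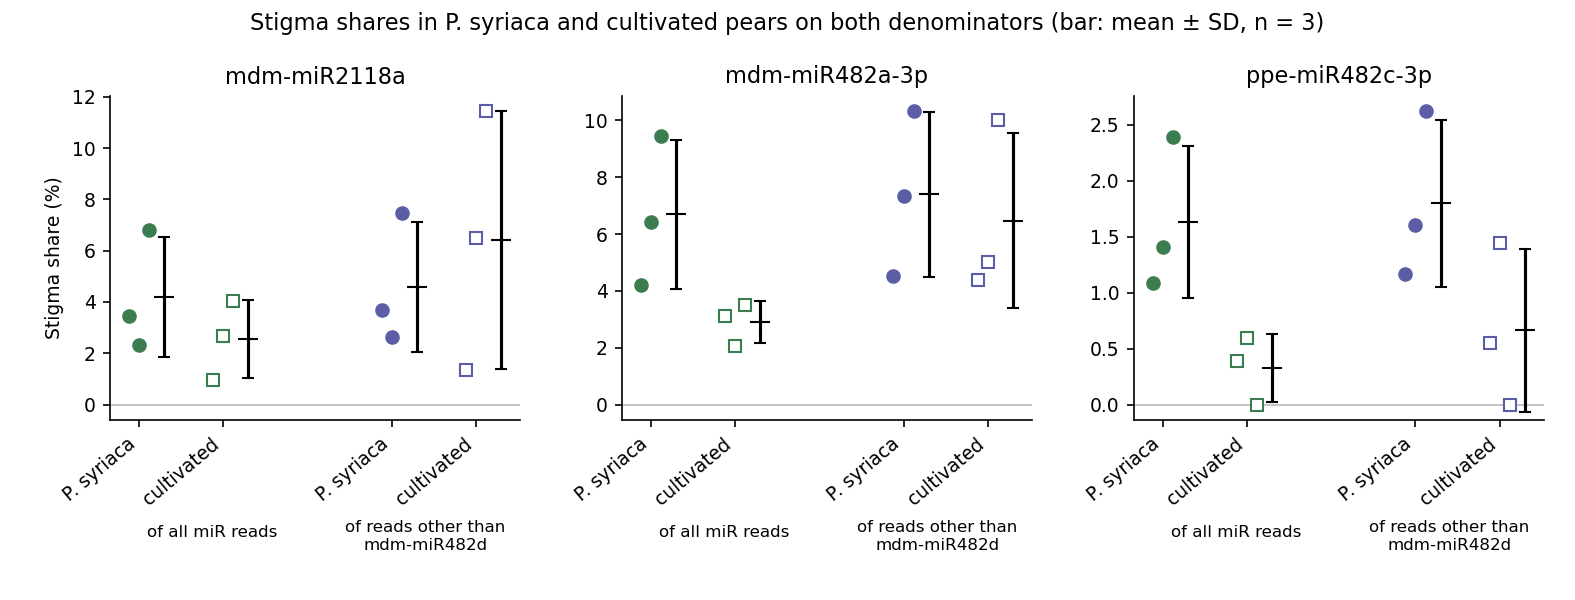
Stigma share (percent, vertical axis, own scale in each panel) of 3 miRs in P. syriaca (filled circles) and cultivated pears (open squares), as percent of all miR reads (green) and of the reads other than mdm-miR482d (violet), with the mean and SD of 3 genotypes in black. The groups of mdm-miR482a-3p and ppe-miR482c-3p stand apart on the green scale and overlap on the violet one.

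The edgeR test of P. syriaca against P. pyrifolia stigmas, without the single P. communis library, called none of the 3 miRs. The log2 fold changes were 0.87 for mdm-miR482a-3p (SE 0.38, adjusted p = 0.378), 1.59 for ppe-miR482c-3p (SE 0.96, adjusted p = 0.410) and -0.07 for mdm-miR2118a (SE 0.57, adjusted p = 0.937). With a genotype left out, ppe-miR482c-3p ran from 0.50 (without Shinsui) to 7.11 (without Hosui, which leaves Shinsui with 0 reads as the only P. pyrifolia library, so that the value depends on the prior count and is no bound), and mdm-miR482a-3p was lowest, at 0.52, without SASA. Of 29 miRs 1 was called, mdm-miR482d (3.45%), and the median log2 fold change was 0.87. In the exudates only mdm-miR2118a of the 4 miRs had enough reads for this test. Its log2 fold change was 0.03 (SE 1.31, edgeR adjusted p = 0.985). None of 3 miRs was called there (0.0%), DESeq2 called none either, and no unadjusted edgeR p was under 0.05 (0 of 3). The exudate share of mdm-miR2118a averaged 7.98% ± 4.49 in P. syriaca and 8.11% ± 0.773 in cultivated pears (SD, n = 3 each), and its part of the pair with mdm-miR482a-3p did not separate the groups in exudates (75.7% ± 22.5 and 88.9% ± 19.2, exact permutation p = 0.7) or in stigmas (37.7% ± 9.88 and 44.5% ± 17.9, exact permutation p = 0.6).

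Within the seed pair, ppe-miR482c-3p had fewer reads than mdm-miR482a-3p in 6 of 6 stigmas. It took 3 of 11 exudate reads of the pair (27.3%, interval 9.75% to 56.6%) and 66 of 355 stigma reads (18.6%, interval 14.9% to 23.0%). By stigma the part was 20.5% in Golan, 18.0% in Manara, 20.2% in SASA, 11.1% in Spadona, 22.2% in Hosui and 0% in Shinsui, with overlapping intervals throughout. The 3 deepest stigmas, all of P. syriaca, gave nearly equal values.

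Reads were also counted on mdm-miR482a-5p, the other arm of the hairpin mdm-MIR482a. It lies 1 mismatch from ppe-miR482c-5p, which had 0 reads, as the 3p arm does from ppe-miR482c-3p. The reads of both arms are thus uncertain as reads of this hairpin alone. The 3p arm took 8 of 11 exudate reads of both arms (72.7%, interval 43.4% to 90.3%) and 289 of 322 stigma reads (89.8%, interval 86.0% to 92.6%). The exudate of SASA held 1 read of the 5p arm and 0 of the 3p arm. In stigmas the 3p arm led in 6 of 6 genotypes, from 83.3% in Golan to 100% in Shinsui, where 7 reads were counted.

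The miRs whose shares over the 12 libraries were most like those of the family were found by Bray-Curtis distance among 35 miRs, where 0 means equal shares. They were mdm-miR1511 (0.431) and fve-miR1511 (0.507) for mdm-miR2118a, mdm-miR1511 (0.230) and mdm-miR169a (0.265) for mdm-miR482a-3p, and mdm-miR159a (0.298) and mdm-miR396b (0.350) for ppe-miR482c-3p. The distance of mdm-miR2118a to its nearest miR was the largest of these 3 nearest distances.

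The deposited target predictions hold no pairing of the 4 miRs. None of 73 pairings in the exudate table belongs to mdm-miR2118a, mdm-miR482a-3p or ppe-miR482c-3p, the 3 of them present in both tissues. The stigma table is for the 24 miRs present in stigmas without an exudate read, and none of the 4 is among these. Its 163 pairings cannot tell whether the 4 have targets. ppe-miR482d-3p was in neither group of miRs, so the lack of pairings says nothing about it. By comparison, mdm-miR482d has 3 pairings in the exudate table and mdm-miR482b has 3 in the stigma table. The label of NBS-LRR regulators thus rests, for the 4 miRs, on the families' known role and not on these tables. The predictions were made by the authors with psRNATarget against Arabidopsis transcripts at an expectation of at most 2.5. The exudate table lists 19 of the 25 miRs present in both tissues. The 6 without a pairing were mdm-miR2118a, mdm-miR482a-3p, ppe-miR482c-3p, mdm-miR168a, mdm-miR395a and mdm-miR5225a. Of these 6, 4 are 22 bases long, against 0 of the 19 listed, while the stigma table lists 3 miRs of that length.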

How the data were processed

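The 4 miRs were counted in 12 small RNA libraries. Per the study's methods, reads were trimmed with Cutadapt 1.1 to 18 to 28 bases, quality filtered and assigned with miRExpress to strawberry, apple and peach miRs of miRBase 22. The whole-number counts were deposited by the authors without normalization, with the counts of identical sequences averaged. Other deposited values used were the positions in predicted pairings; GO and pollen tables were not used.

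Shares were tested by exact sign flips or permutations, and counts by edgeR 4.0.16 (quasi-likelihood, at least 10 reads over the libraries, TMM, FDR 0.05) in R 4.3.3, with p-values adjusted over all miRs tested. DESeq2 1.42.0, other filters and scalings, the genotype as a block and each genotype left out were the alternatives. TMM uses miRs with reads in both libraries, and its factors ran from 0.798 to 4.34 in exudates and 0.417 to 1.00 in stigmas. The tests were run on simulated data, where TMM at these depths gave false calls, so values on library totals stand beside them. Both libraries of a genotype are paired by design, and their deviations over 35 miRs correlated with r from -0.06 to 0.59, closest to their own genotype in 2 of 6. Python 3.11.15, numpy 2.4.6, pandas 2.3.3, scipy 1.17.1 and matplotlib 3.10.9 were used. The miRs and the tests were chosen with earlier results of these data known. So were the lists (names with miR482 or miR2118, and other families known to target NBS-LRR genes). The likeness rule (2 nearest miRs outside the 4 by Bray-Curtis distance) was also chosen with those results known. The miRs mdm-miR168a, mdm-miR395a and mdm-miR5225a were named after their values had been seen.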

Additional observations from a re-analysis of the deposited data

How the results depend on the processing

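Exudate depth was a limit: 0 reads in an exudate allows up to 11.1% of it. Between the tissues, 7 of 35 miRs were called by edgeR with TMM, against 1 with library totals, 13 with TMMwsp (chosen after seeing the data), 6 with DESeq2 and 6 with the genotype as a replicate block (mdm-miR482a-3p -2.38, edgeR adjusted p = 0.00375). On other numbers of miRs, the calls were 0 of 3 with edgeR's own filter (1 at an unadjusted p under 0.05), 6 of 120 with no filter, and 3 to 6 of 25 to 34 with a genotype left out, where 3 of 25 was the count without Manara. The cause was not tested, beyond fewer miRs under a stricter filter. With TMM scaling of the shares, the difference of mdm-miR2118a turned to -0.0565 and that of ppe-miR482c-3p to -0.566 percentage points. With a genotype left out, the difference of ppe-miR482c-3p ran from -0.549 (without Golan) to 0.513, being -0.296 without Spadona, while that of mdm-miR2118a kept its sign (4.18 to 5.51), as did that of mdm-miR482a-3p (-3.88 to -1.80). The pair ratio kept its direction (37.8 to 44.1 points, exact p = 0.0625, the smallest for 5 pairs). The log2 fold change of mdm-miR2118a between tissues was -0.73 with edgeR's own filter, -0.53 with TMMwsp and -0.36 with no filter. It was -0.12 with DESeq2, -0.07 with the genotype as a block, 1.16 with library totals and -0.33 to 0.37 with a genotype left out. Between P. syriaca and P. pyrifolia stigmas, 1 miR was called by edgeR, against 2 with library totals, 0 with no filter (9 at an unadjusted p under 0.05), 0 with the replicate block, which pairs only numbers here, and 0 to 1 with a genotype left out (1 only without Shinsui). mdm-miR2118a was then at 0.22 with no filter, 0.33 with library totals and -0.57 to 0.15 with a genotype left out. In exudates it was at -0.34 with no filter, -0.23 with library totals, -0.70 with DESeq2, -0.39 with the block and -0.50 to 0.78 with a genotype left out. Without mdm-miR482d in the total, 0 of the 4 miRs in place of 2 had stigma ranges without overlap. Over all miRs counted, 1 of 29 (3.45%) was then higher in P. syriaca without overlap, in place of 7 of 30 (23.3%).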

Other observations

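Of the 16 other miRs of the table named miR482 or miR2118, 4 had reads and 12 had none. Their reads were nearly all of mdm-miR482d, with 203 in exudates and 872 in stigmas, a miR of 21 bases that shares its seed with none of the 4 miRs described. mdm-miR482a-5p had 3 exudate and 33 stigma reads, and mdm-miR482b and mdm-miR482c had 0 exudate and 2 stigma reads each. The only other family of the table known for targeting NBS-LRR transcripts, fve-miR2109, had 0 reads in the 12 libraries.

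The miRs of 22 bases, the length known for starting secondary small RNAs, were 77 of the 355 in the table. The 4 miRs described made up 38 of the 47 exudate reads of this length (80.9%) and 530 of the 612 stigma reads (86.6%). All miRs of this length together took 11.1% of exudate reads and 11.6% of stigma reads.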
